A study of Egretta garzetta and Nycticorax nycticorax with 12 samples.

Results

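Genes collected for their part in seeing are mostly thought of as genes of the eye, yet many of them do general work in cells. This account is about the vision-list genes that were well expressed in the olfactory epithelium (OE), the nasal tissue sheet that holds the olfactory neurons, in *Nycticorax nycticorax* (black-crowned night heron) and *Egretta garzetta* (little egret). The study listed 299 vision symbols, and 245 of them had an identifier of both species in the files. A symbol was a member when its mean over the 6 birds was at least 10 TPM in each species and it was not among 24 photoreceptor, neuronal and collagen symbols that were set aside. TPM, transcripts per 1000000, is a level that is already divided by gene length and by sequencing depth. There were 130 members. Of the other paired symbols, 94 were under 10 TPM in at least 1 species and 21 were set aside, 4 of which also reached 10 TPM in both species. The members were thus chosen by their mean TPM, so their levels are described here without a test. The difference between nestlings and adults was not itself part of the choice and was tested. A gene that was high at 1 stage could still reach the minimum through the birds of that stage.

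The tissue came from 12 birds, each sequenced as a library of its own: 3 nestlings (numbered 1 to 3) and 3 adults (4 to 6) of each species. The birds were wild and untreated, the nestlings came from different nests, the adults were told by breeding plumage, and no exact ages were given. The adults were caught at another place than the nestlings, so that stage and place cannot be told apart, and no batch or date was given. The authors made 1 table per species, which holds 13361 genes for *N. nycticorax* and 16585 for *E. garzetta*, and between 10530972 and 16326012 reads per bird, worked out from the coverage, lay on these genes. All positions are on the scaffolds of the assemblies that the files use.

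In the retina, an opsin that has caught light activates a G protein and a phosphodiesterase, which lowers cyclic GMP and closes channels in the outer segment, a modified cilium. Around this cascade stand genes that build the eye and keep it clear: ciliary transport genes, retinoic acid enzymes, growth factors of the TGF-beta, BMP and WNT families with their receptors, transcription factors of the lens and retina, and lens, junction and matrix proteins. The olfactory neuron also ends in cilia and also signals through a G protein, but with its own receptors and cyclase. Many genes of the eye list are known to act in epithelia, connective tissue and mitochondria throughout the body.

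Sorted by role, the members were spread unevenly over the list. Of the paired symbols that were not set aside, 7 of 7 in the ribosome, nucleotide, cell cycle and protein turnover group were members, as were 17 of 18 in mitochondria, lysosome and membrane traffic. Receptor kinases, hypoxia and other signalling gave 19 of 25, cilia and ciliary transport 14 of 19, and TGF-beta and BMP signalling 11 of 16. Retinoic acid synthesis gave 3 of 4, WNT signalling 7 of 12, transcription factors and chromatin 24 of 42, and adhesion and matrix 8 of 17. The lowest shares were in lens, cytoskeleton and junctions with 10 of 27, in G protein signalling and photoresponse with 8 of 27, and in channels, transporters and transmitters with 2 of 10. These shares describe the choice by level and were not tested.

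The lists that mark other cell types were checked in the same birds. Photoreceptor markers were near 0: the 11 listed genes summed to 4.35 to 11.9 TPM per bird in *N. nycticorax* and the 10 found in *E. garzetta* to 1.69 to 6.73 TPM, with *GNAT1*, *CNGA1* and *PDC* at 0 in every *E. garzetta* and *PDC* at 0 in every *N. nycticorax*. Of these sums, *CNGB1* alone gave 1.96 to 8.12 TPM in *N. nycticorax* and 0.337 to 3.66 TPM in *E. garzetta*. In both species *CNGB1* was highest in nestling 3, which also had the highest summed olfactory receptor genes, at 70.4 and 47.8 TPM. In *N. nycticorax* it was lowest in nestling 2, where that sum was 27.3 TPM. Which cells *CNGB1* came from was not tested, and the photoreceptor sums without it were lower still. The 7 lens markers summed to 3.16 to 15.5 TPM over all 12 birds. The olfactory receptor genes, the defining genes of olfactory neurons, were low too, with summed levels of 3.38 to 70.4 TPM over 61 genes in *N. nycticorax* and 1.38 to 47.8 TPM over 132 genes in *E. garzetta*. General neuron markers summed to 17.8 to 46.1 TPM in *N. nycticorax* and 42.5 to 70.7 TPM in *E. garzetta*, mostly from *VSNL1*. Markers of neural progenitors and supporting cells summed to 83.7 to 233 TPM and 15.5 to 174 TPM in the same order, mostly from the member *SOX2*. Those of blood and immune cells summed to 10.9 to 33.6 TPM and 5.24 to 20.1 TPM. The muscle marker stayed at 1.12 TPM or less. Connective tissue markers were the most abundant of these lists, and the 5 genes summed to 974 to 22335 TPM in *N. nycticorax* and to 10293 to 69472 TPM in *E. garzetta*. The collagen gene *COL1A1* alone took 0.0847% to 2.19% of all TPM in the birds of *N. nycticorax* and 0.971% to 6.74% in those of *E. garzetta*. In such bulk samples, fewer cells of a type and less RNA per cell cannot be told apart.

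One bird of each species stood apart from the others of its own species, and both bear on the values below. Nestling 2 of *N. nycticorax* was the lowest of its 6 birds for 97 of the 130 members, with a median member level of 11.3 TPM against 30.04 to 40.6 TPM in the other birds. Its shortfall grew with the coding length of the gene model. On the log2 scale against the median of the other 5 birds, its median member was at -1.26 for coding lengths under 1000 bp, -1.28 for 1000 bp to under 2000 bp, -1.89 for 2000 bp to under 3000 bp and -2.97 for 3000 bp or more, and the medians over all genes of at least 10 TPM were -0.45, -1.17, -1.62 and -2.34. Spearman's rho with coding length across the 130 members, which share the library, was -0.33. Nestling 3 was low too, to a lesser degree. In the same classes its median members were at -0.34, -0.14, -0.37 and -0.63, which was lowest in the longest class but did not fall in order. Its medians over all genes of at least 10 TPM were -0.16, -0.23, -0.28 and -0.41, and its rho was -0.19. In *E. garzetta*, adult 5 was the lowest bird for 63 members, with a median of 26.6 TPM against 33.4 to 36.4 TPM in the others. Its medians of -0.36, -0.31, -0.48 and -0.03 in the same classes of length did not order with length. The medians over all genes of at least 10 TPM were -0.27, -0.34, -0.32 and -0.27, so its low level was not particular to the members. What set nestling 2 and adult 5 apart was not tested. The main counts and medians, and the differences that these birds moved most, are given with and without them.

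**Figure D1:**
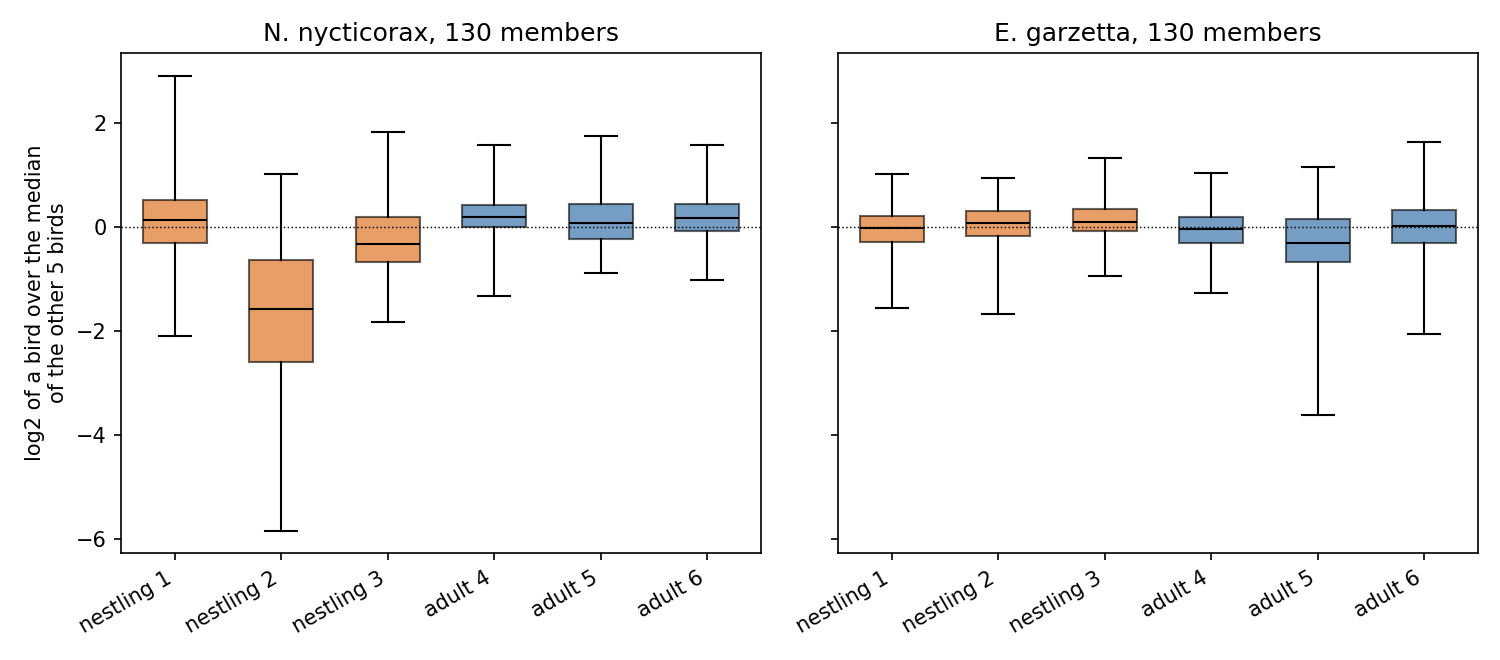
Each box shows, for 1 bird, the log2 of its level over the median of the other 5 birds across the 130 members, with the median as a line, the quartiles as the box and the lowest and highest member as whiskers, for nestlings (orange) and adults (blue) of *N. nycticorax* (left) and *E. garzetta* (right). In *N. nycticorax* the median of nestling 2 lies at -1.58, and the other birds lie between -0.33, for nestling 3, and 0.21. In *E. garzetta* the median of adult 5 lies at -0.30, and the other birds lie between -0.03 and 0.11.

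**Figure D2:**
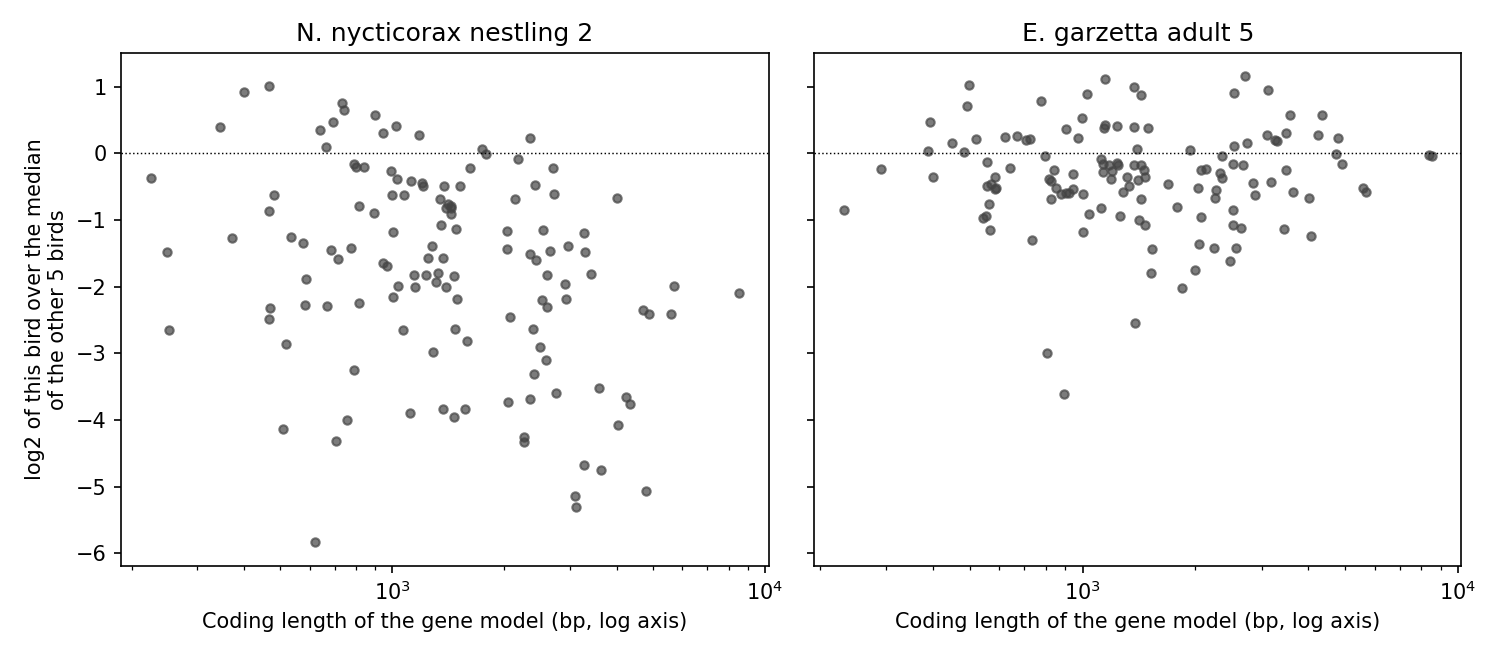
The log2 of *N. nycticorax* nestling 2 (left) and of *E. garzetta* adult 5 (right) over the median of the other 5 birds is plotted against the coding length of the gene model, in bp on a log axis, with 1 point per member. Points of nestling 2 lie lower at greater lengths, with rho at -0.33, and those of adult 5 show no such slope, with rho at -0.01.

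All 130 members were above 0 in all 12 birds. Their mean levels ran from 10.1 to 1488 TPM in *N. nycticorax*, with a median of 35.5 TPM, and from 10.3 to 1582 TPM in *E. garzetta*, with a median of 36.0 TPM. Within each species the median member stood at percentile 65.3 and 73.4 of all genes. In *N. nycticorax*, 71 members were at 10 TPM or more in every bird, and in *E. garzetta* 113 were. The minimum cut through a continuous range of levels. Just inside it stood *TBC1D32*, with means of 10.1 TPM in *N. nycticorax* and 12.7 TPM in *E. garzetta*, *NHS* with 12.0 and 10.3 TPM, and *LRP6* with 15.1 and 11.03 TPM. Just outside were *BCAR3* with 15.5 and 9.59 TPM, *RPGR* with 17.1 and 9.58 TPM, and *RET* with 9.36 and 25.4 TPM.

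The spread between birds depended on the birds that stood apart. The median member had a coefficient of variation of 40.9% in *N. nycticorax*, against 38.7% for all genes of at least 10 TPM, and of 25.3% in *E. garzetta*, against 23.7%. The highest bird was 4.27 times the lowest for the median member of *N. nycticorax* and 1.98 times for that of *E. garzetta*. Without nestling 2, the coefficient of the median member in *N. nycticorax* was 25.4%, against 24.4% for all genes of at least 10 TPM, and the highest bird was 1.94 times the lowest. Without adult 5, the same values in *E. garzetta* were 21.1%, 20.5% and 1.74 times. With all 6 birds, the steadiest members were *PPT1*, a lysosomal thioesterase, at 7.34% in *N. nycticorax*, and *WFS1*, a membrane protein of the endoplasmic reticulum, at 7.28% in *E. garzetta*. The widest range in *N. nycticorax* was that of *NIPBL*, a loader of cohesin onto chromatin, at 108 times, and it rested on nestling 2 at 0.251 TPM, or 2.99 read equivalents, against 9.91 to 27.0 TPM in the other birds. The widest in *E. garzetta* was that of *SOX2*, at 14.2 times, and it rested on adult 5. The gene models also differ between the assemblies: 24 members had coding lengths more than 1.5-fold apart, such as *GNB1* with 249 bp in *N. nycticorax* and 1200 bp in *E. garzetta*.

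Of the light cascade itself, signalling subunits and carriers reached 10 TPM, while no paired opsin, transducin alpha subunit or catalytic phosphodiesterase subunit did. *GNB1*, a G protein beta subunit used by many receptors, stood highest at 304 ± 104 TPM (SD, n = 6) in *N. nycticorax* and 302 ± 34.4 TPM (SD, n = 6) in *E. garzetta*. *PDCL*, a phosducin-like protein that helps to fold beta subunits, had means of 91.7 and 63.0 TPM in the same order. *PDE6D*, which carries prenylated proteins to cilia, had means of 74.8 and 67.7 TPM. The alpha subunits *GNA11* and *GNAQ*, which couple receptors to phospholipase C, had 41.1 and 33.7 TPM in *N. nycticorax* and 36.0 and 36.3 TPM in *E. garzetta*. The remaining members of this role were *NXNL2*, *RD3* and *GNB5*, at 15.7 to 34.5 TPM in *N. nycticorax* and 15.1 to 39.8 TPM in *E. garzetta*. By comparison, rhodopsin (*RH1*) lay between 0 and 0.791 TPM in the *N. nycticorax* birds and between 0.536 and 1.53 TPM in the *E. garzetta* birds.

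The 14 ciliary members lay between 10.1 and 82.0 TPM in *N. nycticorax* and between 12.7 and 70.0 TPM in *E. garzetta*. They held parts of the transition zone at the base of the cilium (such as *TMEM231*, *B9D1* and *NPHP4*), of intraflagellar transport (*IFT88*, *IFT122* and *WDR19*) and of the BBSome (*BBS4*, *BBS7* and *TTC8*). *TMEM231* was the highest in *N. nycticorax* at 82.0 TPM and had 66.8 TPM in *E. garzetta*. *IFT88* was at 96.3, 88.0 and 31.8 TPM in the *N. nycticorax* nestlings and at 75.0, 49.7 and 75.9 TPM in the adults. In *E. garzetta* the same gene was at 25.3, 43.8 and 51.9 TPM in the nestlings and at 46.4, 14.3 and 37.8 TPM in the adults, so that adult 5 was again the lowest. For 12 of the 14 genes the mean of *N. nycticorax* was the higher one, and the median ratio of the species means was 1.31. In the other roles this count ran from 2 of 11, in TGF-beta and BMP signalling, to 6 of 8, in G protein signalling. The birds of the species overlapped for all ciliary members but 1, *NPHP4*, for which every *E. garzetta* bird was higher. The gene model of *NPHP4* has 1434 bp of coding length in *N. nycticorax* and 822 bp in *E. garzetta*, so unequal stretches are compared. These genes share libraries and are no independent replicates.

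The channel group gave only the water channels *AQP1* and *AQP5*, and both were among the most abundant members. *AQP1* stood at 1488 ± 834 TPM (SD, n = 6) in *N. nycticorax* and 1582 ± 242 TPM (SD, n = 6) in *E. garzetta*, at percentiles 99.2 and 99.4 of all genes. *AQP5*, the water channel of gland and airway epithelium, stood at 703, 504 and 279 TPM in the nestlings and 447, 687 and 563 TPM in the adults of *N. nycticorax*. In *E. garzetta* it was at 212, 200.1 and 179 TPM in the nestlings and at 200.1, 25.3 and 250.4 TPM in the adults, where adult 5 was far below the rest.

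Retinoic acid, a regulator of eye and olfactory development, is made by aldehyde dehydrogenases, and the listed *ALDH1A1*, *ALDH1A2* and *ALDH1A3* were all members. *ALDH1A3* was at 207, 14.9 and 78.2 TPM in the *N. nycticorax* nestlings and at 236, 231 and 233 TPM in the adults. In *E. garzetta* it was at 116, 130.01 and 123 TPM in the nestlings and at 87.3, 58.7 and 223 TPM in the adults. *ALDH1A1* varied most widely, from 12.4 to 201 TPM in *N. nycticorax* and from 13.9 to 154 TPM in *E. garzetta*, and *ALDH1A2* was low at 13.2 and 19.2 TPM. *STRA6*, the membrane receptor for retinol uptake, stayed under 1 TPM in mean level in both species and was the 1 paired gene of this role that was no member. *RXRA*, a nuclear receptor that pairs with the retinoic acid receptors, had means of 31.6 and 28.9 TPM.

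Growth factor signalling was represented from ligand to nuclear effector. Among the TGF-beta and BMP members, the ligands *TGFB2* and *BMP7* had means of 51.7 and 45.4 TPM in *N. nycticorax* and 81.1 and 62.8 TPM in *E. garzetta*, the receptors *TGFBR2* and *BMPR2* had 36.9 and 16.1 TPM and then 32.9 and 17.1 TPM, and the effectors *SMAD3* and *SMAD1* had 60.8 and 35.2 TPM and then 64.6 and 36.8 TPM. The corepressor *TGIF1* was the highest of this role at 220 ± 72.8 TPM (SD, n = 6) in *N. nycticorax* and 161 ± 49.9 TPM (SD, n = 6) in *E. garzetta*. In the WNT group, *CTNNB1* (beta-catenin), which also anchors cadherins at junctions, stood at 464 and 533 TPM, while the ligands *WNT5A* and *WNT5B* and the coreceptor *LRP6* were at 28.1, 29.7 and 15.1 TPM in *N. nycticorax* and at 64.5, 63.7 and 11.03 TPM in *E. garzetta*. Among the receptor and hypoxia members, *EPAS1*, an oxygen-sensitive transcription factor, led with 225 ± 81.4 and 223 ± 73.5 TPM (SD, n = 6 in each), and the receptors *FGFR2* and *FGFR3* had 73.1 and 68.7 TPM and with 72.0 and 156 TPM.

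The 24 transcription and chromatin members were led by *HDAC2*, a histone deacetylase, with 179 ± 39.5 TPM (SD, n = 6) in *N. nycticorax* and 140 ± 32.9 TPM (SD, n = 6) in *E. garzetta*. *SOX2*, a factor of neural progenitors and of the supporting cells of the OE, was at 221, 65.1 and 114 TPM in the nestlings and at 203, 225 and 182 TPM in the adults of *N. nycticorax*. In *E. garzetta* it was at 100.7, 163 and 143 TPM in the nestlings and at 141, 11.5 and 133 TPM in the adults. Adult 5 of *E. garzetta* was thus low in *SOX2*, *AQP5* and *ALDH1A1* alike. Beside this it had the highest *COL1A1*, at 67385 TPM against 9708 to 41989 TPM in the other birds. Of the 3 epithelium markers, *GRHL2* and *GRHL3* were lowest in this bird, at 8.25 and 8.03 TPM, but *KLF4* was highest, at 142 TPM. Its summed olfactory receptor genes were at 1.52 TPM, against 31.0 and 28.6 TPM in the other adults and 1.38 TPM in nestling 2. The part of connective tissue in these values was not tested. *KLF4*, a factor of surface epithelia, had means of 114 and 89.4 TPM. The eye development factors *PAX6* and *PAX2* were listed but were no members.

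Lens and matrix members included the most abundant structural genes. *VIM* (vimentin), the intermediate filament of mesenchyme and lens, stood at 613 ± 181 TPM (SD, n = 6) in *N. nycticorax* and 1360 ± 449 TPM (SD, n = 6) in *E. garzetta*. *GJA1* (connexin 43), a gap junction protein, was at 30.7, 36.9 and 391 TPM in the nestlings and at 131, 373 and 110 TPM in the adults of *N. nycticorax*, and between 354 and 881 TPM in the birds of *E. garzetta*. *LUM* (lumican), a proteoglycan that spaces collagen fibrils in the cornea and other connective tissue, was at 94.6 to 479 TPM in *N. nycticorax* and at 488 to 1726 TPM in *E. garzetta*. The crystallins that define the lens were absent from the members. Of the mitochondrial and lysosomal members, *RAB18*, a small GTPase of membrane traffic, had 199 and 205 TPM, and *RCN1*, a calcium-binding protein of the endoplasmic reticulum, had 119 and 291 TPM. *RPL24*, a protein of the large ribosomal subunit, was second to *AQP1* in both species, at 1400 ± 488 TPM and 1559 ± 275 TPM (SD, n = 6 in each).

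The species were set side by side without a test, since their tables were made separately and the levels chose the members. Mean levels were close for most members: 95 of 130 lay within 1.5-fold of each other, 16 were more than 2-fold apart, and the median ratio of *N. nycticorax* to *E. garzetta* was 1.01. Pearson's r between the log2 means was 0.91 and Spearman's rho was 0.87 across the 130 genes, which share libraries and are no independent replicates, and the values over all 244 paired genes were 0.93 and 0.93. Every *N. nycticorax* bird was above every *E. garzetta* bird for 2 members and below for 8, where 3.69% and 5.33% of the 244 paired genes did so. The 244 paired genes include the 130 members. The 2 were *AQP5* and *NPR1*, the receptor for atrial natriuretic peptide. The 8 were *LUM*, *NPHP4*, *SKI*, *WNT5B*, *CLIC4*, *TSPAN12*, *NF2* and *DNAJC19*. Of these, *NPHP4* and *SKI* had coding lengths more than 1.5-fold apart, with 2253 bp for *SKI* in *N. nycticorax* and 1239 bp in *E. garzetta*.

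Of the 16 members more than 2-fold apart, 4 were higher in *N. nycticorax*. *NPR1* led, with 23.9, 55.4 and 26.6 TPM in nestlings and 52.4, 58.2 and 40.0 TPM in adults against 8.57 to 17.5 TPM in *E. garzetta*, a ratio of means of 3.00. *AQP5* followed at 2.98, *SLC25A25*, a mitochondrial carrier, at 2.58, and *MYH10*, a nonmuscle myosin, at 2.47. The other 12 were higher in *E. garzetta*, led by *LUM* at 4.51, *GJA1* at 3.89, *PDGFRA* at 2.58, *NPHP4* at 2.55 and *RCN1* at 2.45, and *VIM* and *COL4A1* were both at 2.22. *LUM*, *COL4A1*, *PDGFRA* and *VIM* are known from connective tissue or mesenchyme. The summed connective tissue markers include *LUM* and *PDGFRA* but are mostly *COL1A1*. They ran from 10293 to 69472 TPM in *E. garzetta* and from 974 to 22335 TPM in *N. nycticorax*. The part of tissue composition in these ratios was not tested. Coding lengths differed by more than 1.5-fold for 3 of the 16. *NPHP4* and *VIM* were among these, and *VIM* had 1377 bp in *N. nycticorax* and 777 bp in *E. garzetta*.

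**Figure D3:**
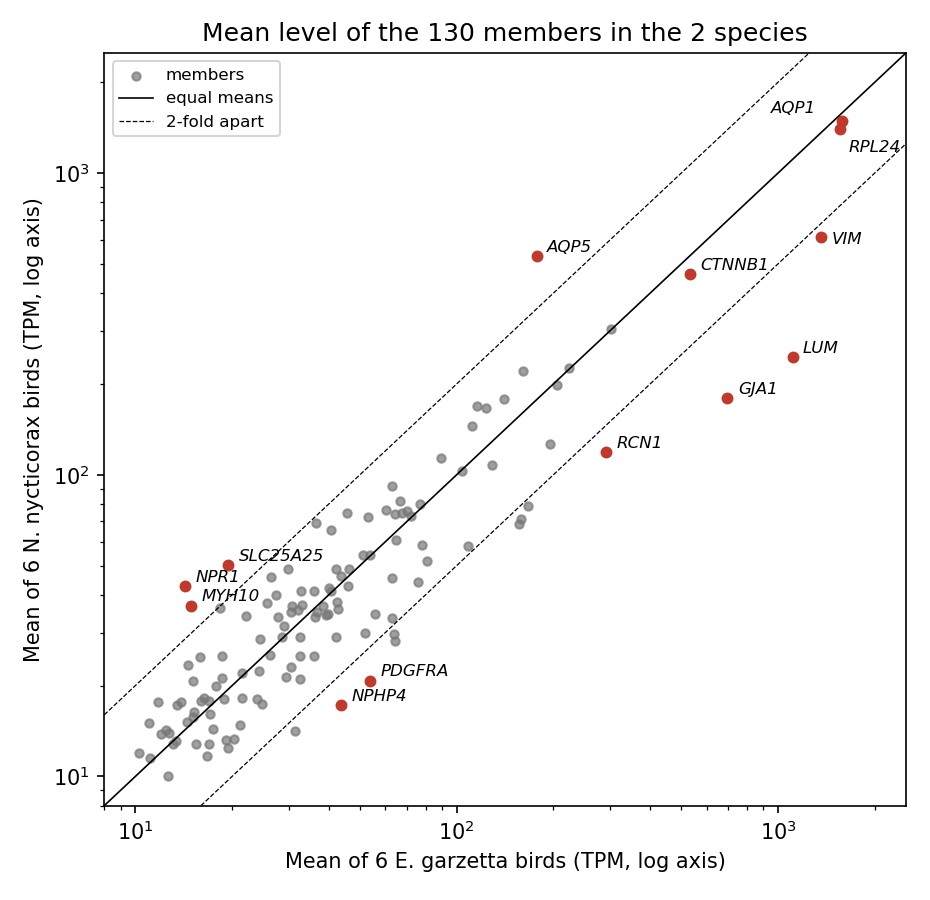
Each point is 1 of the 130 members, with its mean over 6 *E. garzetta* birds on the horizontal and over 6 *N. nycticorax* birds on the vertical axis, in TPM on log axes, the solid line marks equal means and the dashed lines a 2-fold difference. *LUM* (246 against 1110 TPM) and *GJA1* (179 against 696 TPM) lie farthest below the line, and *AQP5* (530.2 against 178 TPM) and *NPR1* (42.8 against 14.3 TPM) farthest above it.

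Nestlings and adults were then compared within each species, with limma on log2(TPM + 0.1) over all genes and Benjamini-Hochberg adjustment at 0.05. Differences are given as nestlings minus adults. In *N. nycticorax* the member levels lay mostly lower in nestlings, but no member passed the test, and neither did any of the 13042 genes tested (0.0% called). At an unadjusted p below 0.05, 12 members stood out, 1 higher and 11 lower in nestlings, which is 0.769% and 8.46% of the members beside 1.07% and 6.02% of all genes tested, where both directions together took 7.08%. Every nestling was above every adult for 6 members, against 3.86% of all genes, and below for 29, against 15.9%. Among genes of at least 10 TPM, the minimum of the members, these shares were 4.24% and 17.8%. Of the same genes, 1.02% were higher and 6.9% lower in nestlings at an unadjusted p below 0.05. Some of the 29 members, such as *EPHB1*, *LRP6* and *NHS*, had a nestling mean under 10 TPM and reached the minimum through their adults. The count of 29 is thus not wholly apart from the choice by level. The median member difference was -0.63, and that of all genes was -0.45, so that the whole transcriptome leaned the same way. A difference above 0 was found in 24.3% of genes of at least 10 TPM and in 27.7% of all genes. Genes at the level of the members thus leaned further than all genes.

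This lean rested in large part on nestling 2. Without it, the median member difference was -0.14 and that of all genes -0.12, with 10 members separate and higher and 31 separate and lower, against 9.04% and 18.2% of all genes for 2 nestlings against 3 adults, and 19 members at an unadjusted p below 0.05, against 10.2%. For genes of at least 10 TPM these shares were 8.94%, 20.7% and 11.7%. Nestling 3, which was lower at greater coding lengths over all genes of at least 10 TPM, was still part of these values. Without nestling 1, the median member difference was -0.97, 71 members were separate and lower, against 37.8% of all genes, and 35 members had an unadjusted p below 0.05, against 21.7%, while 6 genes passed the adjusted threshold (0.0461%), and 0 of them were members. Of genes of at least 10 TPM, 43.6% were then separate and lower and 25.4% had an unadjusted p below 0.05. Scaling each bird to the median ratio over its genes moved the median of all genes from -0.45 to -0.04. On that scale the median member was at -0.20, and 10 members were separate and higher and 18 separate and lower, against 9.97% and 10% of all genes. The shares for genes of at least 10 TPM were 12.0% and 10.6%. A difference above 0 was then found in 48.8% of genes of at least 10 TPM and in 47.8% of all genes.

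The 12 members at an unadjusted p below 0.05 kept an unadjusted p below 0.05 without nestling 2. *EPHB1*, an ephrin receptor that guides growing axons (scaffold 144, positions 1450648 to 1499433, minus strand, 15 exons), was at 11.8, 6.05 and 12.1 TPM in nestlings and at 27.6, 38.6 and 30.1 TPM in adults. Every nestling was thus below every adult, at a difference of -1.73 ± 0.46 (SE) and an adjusted p of 0.573 (limma, Benjamini-Hochberg), and the difference was -1.41 without nestling 2. The nestlings alone had a mean under 10 TPM, so *EPHB1* reached the minimum of the members through its adults. *MERTK*, the receptor with which the retinal pigment epithelium engulfs shed outer segments, was at 19.4, 17.5 and 36.0 TPM in nestlings and at 54.3, 81.0 and 48.4 TPM in adults. Its groups did not overlap either, and its difference was -1.37 ± 0.41 (SE), or -1.17 without nestling 2.

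*AQP1* (scaffold 477, positions 205099 to 223516, minus strand) was at 1365, 343 and 845 TPM in the *N. nycticorax* nestlings and at 1633, 2649 and 2095 TPM in the adults. All nestlings lay below all adults, with a difference of -1.51 ± 0.50 (SE), and of -0.96 without nestling 2. *KLF4* was at 95.7, 63.7 and 49.9 TPM in nestlings and at 136, 218 and 118 TPM in adults, a difference of -1.18 ± 0.36 (SE), or -1.14 without nestling 2. *PDGFRB*, the PDGF receptor of pericytes and fibroblasts, was at 12.8, 0.883 and 22.5 TPM in nestlings and at 48.2, 54.6 and 34.8 TPM in adults. It had the largest difference of the 12, at -2.78 ± 1.10 (SE), which was -1.40 without nestling 2. Beside these, the 5 connective tissue markers, *PDGFRB* among them, summed to 974 to 22335 TPM in nestlings and to 4342 to 13014 TPM in adults (two-sided exact permutation p = 1.0). *COL1A1* made up most of that sum in every bird, so it says little of the other markers. The 3 epithelium markers, all of them members, summed to 79.1 to 187 TPM and to 184 to 270 TPM (two-sided exact permutation p = 0.2, where 3 birds against 3 cannot go below 0.1). *KLF4* made up most of this sum too, so the sum is no separate view of epithelium. *GRHL2*, at 68.2, 3.60 and 20.9 TPM in nestlings and 53.7, 38.1 and 55.8 TPM in adults, overlapped between the groups. So did *GRHL3*, at 23.0, 11.9 and 8.70 TPM and at 11.9, 13.2 and 10.1 TPM. The part of these tissues in the differences was not tested.

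*PDE6D*, the carrier of prenylated proteins (scaffold 93, positions 669171 to 677610, plus strand, coding length 399 bp), went the other way and was the 1 member of the 12 that was higher in nestlings. It was at 84.6, 115 and 88.9 TPM in nestlings and at 60.9, 45.7 and 53.1 TPM in adults, a difference of 0.85 ± 0.28 (SE) that was 0.71 without nestling 2 and 1.28 after rescaling. The rescaling raised the median difference of all genes as well. The other 6 of the 12 were *OLFM3*, *BAK1*, *GNA11*, *TGIF1*, *PVRL3* and *FKBP8*, with differences from -1.50 to -0.54, and from -1.19 to -0.55 without nestling 2. *BAK1*, a protein that opens the mitochondrial membrane in apoptosis, had the lowest of these. The members that were separate and higher in nestlings were *PDE6D*, *RPL24*, *NOB1*, *CLN6*, *DNAJC19* and *NF2*, with differences from 0.21 to 0.85, and from 0.21 to 0.71 without nestling 2. Of these, *RPL24* was at 1396, 2372 and 1231 TPM in nestlings and at 1075, 1156 and 1171 TPM in adults, and nestling 2 was the highest bird.

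By role, the median difference in *N. nycticorax* was below 0 for 11 of the 12 roles, and only 27.7% of all genes tested had a difference above 0, so the lean of the roles is read beside that of all genes. Receptor kinases, hypoxia and other signalling stood at -1.21, with 18 of 19 members below 0, TGF-beta and BMP signalling at -1.04 with 11 of 11, and adhesion and matrix at -0.99 with 8 of 8. Lens, cytoskeleton and junctions were at -0.90, channels at -0.89, retinoic acid synthesis at -0.86, WNT signalling at -0.63, transcription and chromatin at -0.61, G protein signalling at -0.52, mitochondria and lysosome at -0.47 and cilia at -0.17. The ribosome, nucleotide, cell cycle and protein turnover group was at 0.22, with 3 of 7 below 0. This order did not hold without nestling 2. The lowest medians were then those of channels at -0.64, over 2 members, of retinoic acid synthesis at -0.56, over 3, and of TGF-beta and BMP signalling at -0.39. Receptor kinases were then at -0.17, adhesion and matrix at -0.29, cilia at -0.06, the ribosome and turnover group at 0.12, and the remaining 5 roles between -0.16 and -0.04. After rescaling by the median ratio, cilia turned to 0.26 and the ribosome and turnover group was at 0.65. The median coding length was 2595 bp in the receptor kinase group and 741 bp in the ribosome and turnover group. The shortfall of nestling 2 also grew with coding length, but the part of length in these medians was not tested.

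In *E. garzetta* no member passed the test, nor did any of the 14960 genes (0.0% called), and no member had an unadjusted p below 0.05, against 2.33% of all genes. Every nestling was above every adult for 9 members, against 5.64% of all genes, and below for 1, against 1.89%. Among genes of at least 10 TPM, these shares were 6.69% and 1.52%, and 2.18% had an unadjusted p below 0.05. The median member difference was 0.16 beside 0.14 for all genes. After rescaling by the median ratio these were 0.04 and 0.02, and 4 members were separate and higher and 4 separate and lower, against 4.1% and 3.95% of all genes. Of genes of at least 10 TPM, 4.57% were then separate in each direction. Without adult 5, the median member difference was 0.08, 14 members were separate and higher and 3 separate and lower, against 7.28% and 5.73% of all genes, and 2 members, *COL4A1* and *RXRA*, had an unadjusted p below 0.05, against 2.18%. For genes of at least 10 TPM the shares were 8.22%, 4.94% and 1.78%. Without adult 4, 29 members were separate and higher and 9 separate and lower, against 15.0% and 7.48% of all genes, and 10 had an unadjusted p below 0.05, against 7.2%. The shares of genes of at least 10 TPM were then 17.2%, 7.63% and 7.94%.

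The 5 members with the smallest unadjusted p in *E. garzetta* were *RXRA*, *MAP3K1*, *COL4A1*, *PVRL1* and *DLG1*, with an adjusted p of 0.965 each (limma, Benjamini-Hochberg). *RXRA* was at 34.5, 36.3 and 31.3 TPM in nestlings and at 23.98, 27.9 and 19.7 TPM in adults, so that the groups did not overlap, and its difference was 0.52 ± 0.23 (SE), or 0.64 without adult 5. *COL4A1*, a collagen of basement membranes, was at 177, 194 and 183 TPM in nestlings and at 150.4, 159 and 86.4 TPM in adults, again without overlap, at 0.53 ± 0.26 (SE). That difference was 0.70 without adult 5 and 0.25 without adult 6, the lowest bird. *MAP3K1*, a kinase of stress signalling, was at 47.3, 52.0 and 56.7 TPM in nestlings and at 51.3, 21.8 and 26.4 TPM in adults, where adult 4 lay within the range of the nestlings, at 0.75 ± 0.33 (SE), which was 0.49 without adult 5 and 1.11 without adult 4. The widest difference was that of *SOX2*, at 1.15 ± 0.89 (SE), and it was -0.04 without adult 5. The other separate members were *BMP7*, *CASP2*, *FZR1*, *HDAC1*, *RAB3GAP1*, *RRM1* and *TULP3*, which were higher in nestlings, and *SMAD1*, which was lower.

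**Figure D4:**
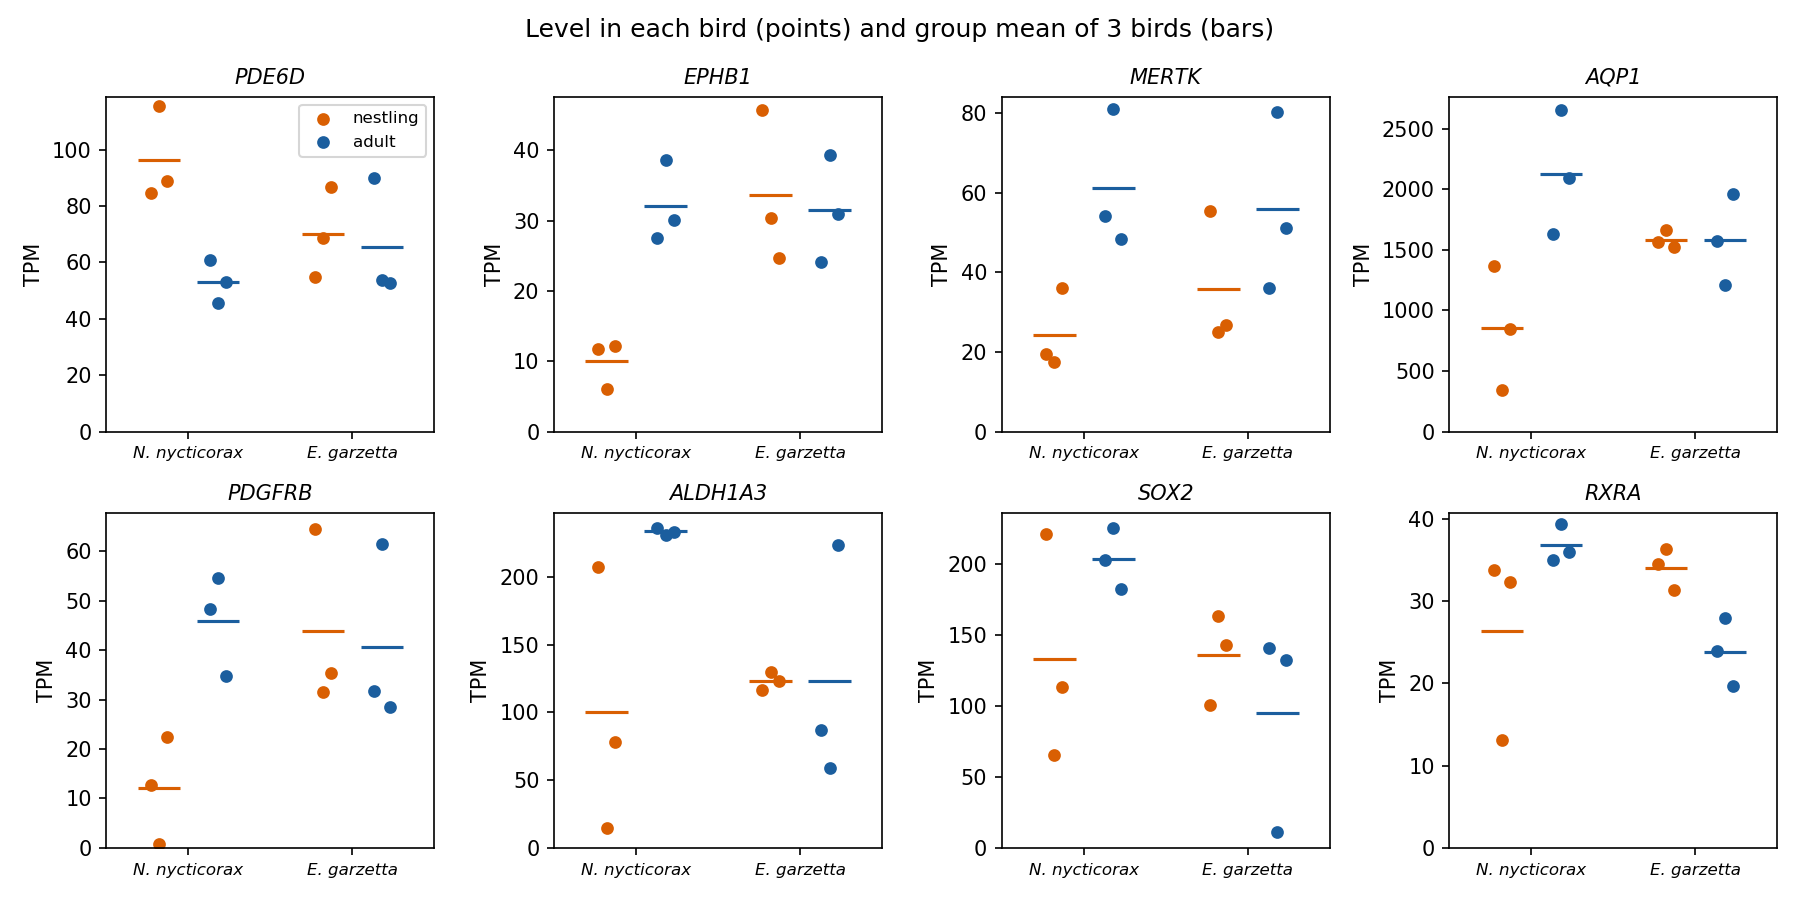
Levels of 8 members are shown in TPM from 0, with 1 point per bird and a bar at the mean of 3 birds, for nestlings (orange) and adults (blue) of both species. In *N. nycticorax* the nestlings and adults do not overlap for *PDE6D*, *EPHB1*, *MERTK*, *AQP1*, *PDGFRB*, *ALDH1A3* and *RXRA*, and in *E. garzetta* the same holds for *RXRA* alone of the 8, in the other direction.

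The nestlings and adults of both species were separate for 3 members. *RXRA* and *FZR1*, an activator of the anaphase-promoting complex, were lower in nestlings in *N. nycticorax* and higher in *E. garzetta*. Their differences in *N. nycticorax* were -0.60 and -0.58, and -0.15 and -0.30 without nestling 2. The gene model of *RXRA* has 777 bp of coding length in *N. nycticorax* and 1374 bp in *E. garzetta*, so unequal stretches are compared. *SMAD1*, the effector of BMP receptors, was lower in nestlings in both. It was at 33.8, 10.4 and 29.7 TPM in nestlings and 41.7, 46.0 and 49.7 TPM in adults of *N. nycticorax*, a difference of -1.06 ± 0.50 (SE) that was -0.53 without nestling 2. In *E. garzetta* it was at 31.8, 29.8 and 31.7 TPM in nestlings and 31.9, 33.2 and 62.5 TPM in adults, a difference of -0.38 ± 0.30 (SE) in which adult 4 at 31.9 TPM stood next to nestling 1 at 31.8 TPM. The difference in *E. garzetta* rested on adult 6 and was -0.07 without that bird.

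The stage difference itself was compared between species in 1 model over the paired genes, which takes each difference within its own table. No member and none of the 236 paired genes tested passed (0.0% called, limma, Benjamini-Hochberg), and 6 members had an unadjusted p below 0.05, against 5.08% of the paired genes. The median member difference of differences was -0.86, against -0.85 for all paired genes, and 115 of 130 members were below 0, or 88.5%, beside 82.2% of the paired genes. The 130 members are themselves part of the 236 paired genes, so these values are not independent. The member median was -0.31 after rescaling by the median ratio, -0.35 without nestling 2 of *N. nycticorax* and -1.07 without its nestling 1. *EPHB1* had the smallest p, with a difference of differences of -1.80 ± 0.58 (SE) and an adjusted p of 0.494. As given above, *EPHB1* reached the minimum of the members in *N. nycticorax* through its adults. The other 5 were *BAK1*, *PDGFRB*, *AQP1*, *TGIF1* and *AHR*, from -2.90 to -1.18. In *E. garzetta*, *EPHB1* was at 45.6, 30.4 and 24.6 TPM in nestlings and at 24.2, 39.3 and 30.9 TPM in adults, so its groups overlapped. Its gene model there has 906 bp of coding length against 2922 bp in *N. nycticorax*, so the same symbol stands for stretches of unequal length. The same holds for *BAK1*, with 567 bp in *E. garzetta* against 252 bp in *N. nycticorax*. *AQP1* has 813 bp in both species, and its *E. garzetta* levels were 1562, 1661 and 1525 TPM in nestlings and 1572, 1211 and 1963 TPM in adults.

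**Figure D5:**
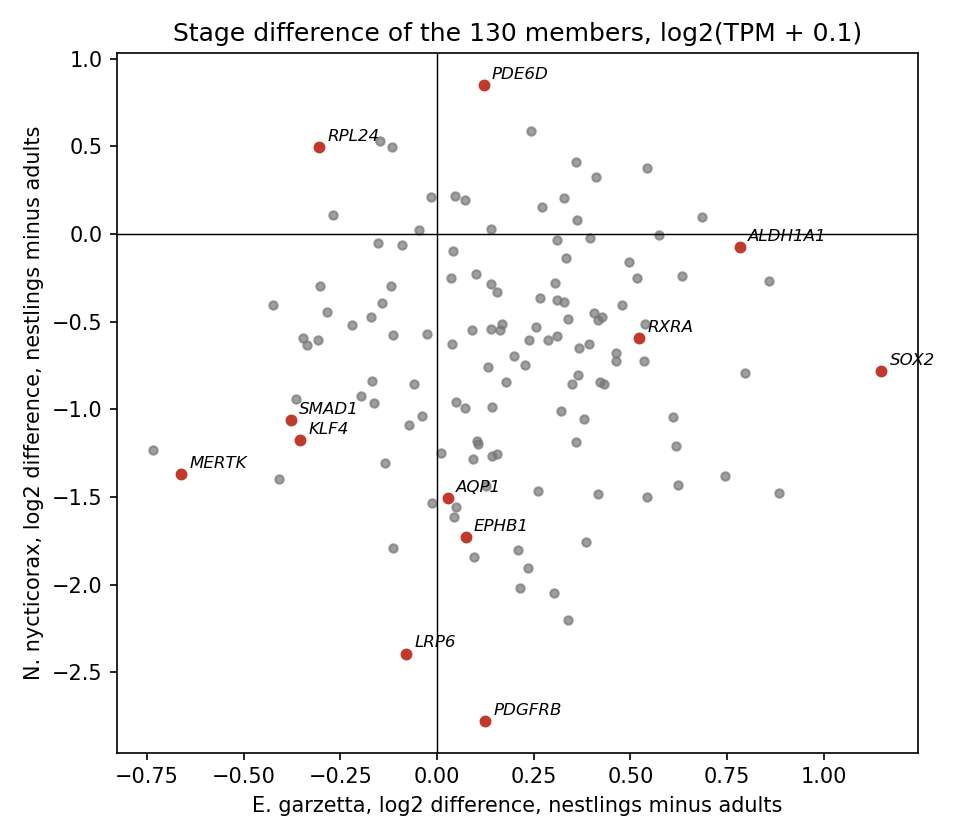
The difference between nestlings and adults on the log2(TPM + 0.1) scale is plotted for the 130 members, with *E. garzetta* on the horizontal and *N. nycticorax* on the vertical axis. In all, 82 members lie below 0 in *N. nycticorax* and above 0 in *E. garzetta*, 30 lie below 0 in both, 12 above 0 in both and 6 above 0 in *N. nycticorax* only. None passed the adjusted threshold on either axis.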

How the data were processed

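OE RNA of 12 birds was sequenced as 150 bp read pairs. The authors trimmed reads with Trimmomatic, mapped them with HISAT2 (version not given in the sources used here) and quantified annotated transcripts in every bird with StringTie 2.1.4. The deposited TPM values, 1000000 in total per bird, were used throughout. The deposited FPKM values were left out. Read equivalents are the deposited coverage, a depth-dependent signal, times coding length over 150. Identifiers were paired with symbols by the study's vision gene list. Gene models hold few untranslated regions, so lengths are coding lengths, and whether the counting used strand was not stated.

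For the stage tests, limma (version 3.58.1, R 4.3.3; lmFit and trended eBayes) took log2(TPM + 0.1) of genes whose mean reached 0.02 TPM, 1 species at a time, and p-values were adjusted over all these genes after Benjamini and Hochberg. The interaction of species and stage was fitted over paired genes. A fold change on this scale understates changes of low genes. Genes not overlapping are those where every nestling was above, or below, every adult. Role and marker lists are general-knowledge groupings. The members and lists were chosen with earlier results of these data known. Genes were named for the smallest p (5 per species), the highest means (5 per species), the members and listed symbols next to the 10 TPM minimum (3 on each side), the highest and lowest ratios between species (4 each), non-overlap in both species, the widest range over birds (3 per species) and the highest mean in each role. Other genes named were chosen after their values were seen. Scripts were tested on simulated data. Other steps ran in Python 3.11.15 (pandas 2.3.3, numpy 2.4.6, matplotlib 3.10.9, scipy 1.17.1). Alternatives were other pseudocounts and filters, median-ratio rescaling, limma voom on read equivalents, leaving out each bird and, chosen after seeing the data, rescaling within bins of coding length.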

Additional observations from a re-analysis of the deposited data

How the results depend on the processing

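No paired analysis was possible because nestlings and adults of a species share no bird number, and the numbers shared between the species name different birds. No member passed the adjusted threshold under any alternative that was run, in either species or in the difference between them, and limma voom on read equivalents called 0 genes in each species. In *N. nycticorax*, 1 gene of the whole table passed without a filter on low values, and leaving out single birds gave 0 to 6 such genes, 2 to 35 members at an unadjusted p below 0.05 (35 without nestling 1, 19 without nestling 2, 5, 2 and 4 without adults 4, 5 and 6), and 37 to 79 members without overlap (79 without nestling 1, 54 without nestling 3), against 12 and 35 with all birds. In *E. garzetta*, 1 gene passed without a filter, and leaving out single birds gave 0 to 1 such genes, 0 to 10 members at an unadjusted p below 0.05 and 12 to 38 members without overlap, against 0 and 10 with all birds. There, 1 member had an unadjusted p below 0.05 with a minimum mean of 10 TPM and 3 had one without a filter, and 5 members were without overlap after rescaling within bins of coding length. That rescaling, chosen after seeing the data, moved the median member difference in *N. nycticorax* to -0.16. The causes of these shifts were not tested, beyond the smaller number of birds, which by itself lets more genes go without overlap. Leaving out a bird gave 128 to 133 members, and asking for 10 TPM in every bird of both species gave 66 members. Some smaller values changed sign: the median of the ciliary members in *N. nycticorax* went from -0.17 to 0.26 after rescaling by the median ratio, and without adult 5 of *E. garzetta* the medians there went from 0.43 to -0.11 for retinoic acid synthesis, from 0.44 to -0.17 for channels, and *SOX2* from 1.15 to -0.04. Another 4 role medians of *E. garzetta* turned to between -0.03 and -0.01, for lens and WNT after rescaling and for G protein signalling and mitochondria without adult 5. With 3 birds against 3, and nothing to separate stage from the place of capture, an adjusted p above the threshold does not show that levels were alike.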
